A study of Caenorhabditis elegans with 12 samples.

Results

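Gonads of fertile homozygous set-2 mutants of generation 4 (F4 fertile) were compared with gonads of the heterozygous founders (P0) that carry 1 wild-type copy of set-2, to describe which transcripts are altered in germ lines that still produce progeny. The comparison takes 3 F4 fertile and 3 P0 samples, 6 of the 12 RNA-seq samples of the series, chosen by their sample titles. All are dissected gonads of Caenorhabditis elegans hermaphrodites of strain PFR541, which carries the set-2(bn129) allele, grown at 25 °C and collected on day 1 of adulthood. P0 animals were set-2(bn129)/qC1, where qC1, written qC1(qIs26) in the paper, is a balancer of chromosome III. The paper states that this balanced strain was kept at a lower temperature and moved to 25 °C 1 generation before the experiments. F4 fertile animals were homozygous set-2(bn129) descendants that had been seen to lay live progeny. The other 6 samples, from fertile F2 and sterile F4 homozygotes, entered the fit that estimates the spread and are given side by side only for named genes and gene lists. Each sample is a pool of gonads from several animals, and the replicates stand for 3 separately kept lineages. The P0 and F4 fertile groups differ in generation number, in generations spent at 25 °C and in the balancer as well as in set-2. In this comparison these cannot be told apart for any gene. Genes on chromosome III also lie on the chromosome that qC1 balances.

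SET-2 is the worm member of the SET1 family and the catalytic subunit of the COMPASS complex, which methylates lysine 4 of histone H3, a mark of active promoters. Animals without it lose fertility over generations at raised temperature. A hermaphrodite gonad of this age is mostly germ cells in mitosis, meiotic prophase and oocyte growth, which load large amounts of RNA and protein for the embryo and keep most of the X chromosome silent. A small number of somatic sheath and tip cells surround them.

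Between 3456068 and 7728189 reads lay on genes in the P0 libraries and between 4026242 and 10335794 in the F4 fertile libraries. Values are CPM, counts per 1000000 reads on genes with TMM-scaled library sizes, and a gene is called lower or higher where edgeR's quasi-likelihood test gave a Benjamini-Hochberg adjusted p under 0.05 over all 8746 genes tested. The share of reads on no gene was 12.8 to 14.4% in P0 and 9.06 to 10.6% in F4 fertile libraries, so these groups did not overlap. The sum of 10 germ line markers was 8128 to 8728 CPM in P0 and 7311 to 7726 CPM in F4 fertile samples, and that of 10 sperm markers was at most 5.01 CPM in either group, with 8 of the 10 under 1 CPM. Somatic gonad markers went both ways. The summed level of 10 sheath markers was 1996 to 2109 CPM in P0 and 1487 to 1726 CPM in F4 fertile samples, with 2 called lower (fln-1 and inx-8) and tnt-4 under 1 CPM. fln-1, which encodes a filamin, carried most of this sum, at 1507 to 1586 CPM in P0 and 1033 to 1247 CPM in F4 fertile samples, while lim-7, itr-1 and inx-9 had log2 fold changes of 0.71, 0.66 and 0.39 and were not called. The sum of 7 spermatheca markers, which include fln-1, was 1536 to 1609 CPM in P0 and 1083 to 1292 CPM in F4 fertile samples, with nmy-1 called higher (1.00, SE 0.28) and 4 under 1 CPM. The sum of 6 distal tip cell markers was 43.2 to 63.3 CPM in P0 and 60.9 to 77.0 CPM in F4 fertile samples, with ina-1 called higher, none lower and hlh-12 under 1 CPM. The sum of 10 intestine markers spanned 2448 to 3101 CPM in P0 and 926 to 3675 CPM in F4 fertile samples, lowest in F4 fertile replicate 1, with elt-2 under 1 CPM. The part of other cells in the results below was not tested, and in dissected tissue fewer cells of a type and less RNA per cell cannot be told apart. The paper states that the arms were cut at the bend. Whether the place of the cut moved these sums was not tested.

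The set-2 gene itself (C26E6.9, chromosome III, 4922391-4930170 in WS220) was at 186, 197 and 194 CPM in P0 and at 123, 130 and 123 CPM in F4 fertile samples. The groups did not overlap, and the difference was -0.61 on the log2 scale (SE 0.07, adjusted p = 0.00013). The counts are summed over the whole gene, so they do not show which parts of it were read. A change in transcript number and a change in transcript form cannot be told apart. Of 10 tested genes of COMPASS and H3K4 methylation, set-2 was the only one called lower (10%, against 7.42% of all genes). Called higher were 3 (30%, against 13.7%). utx-1, an H3K27 demethylase on the X chromosome, rose from 18.4, 11.3 and 17.99 CPM to 65.8, 69.2 and 70.55 CPM (2.06, SE 0.28, adjusted p = 0.00042). The COMPASS subunits cfp-1 and wdr-5.1 rose by 0.30 each (SE 0.07 and 0.09), but cfp-1 was not called without F4 fertile replicate 1 or any single P0 replicate, and wdr-5.1 was not called without any single one of the 6 libraries. The most abundant member not called, the methyltransferase gene set-16, was at 718 to 759 CPM in P0 and 585 to 813 CPM in F4 fertile samples.

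Across all genes, 649 were lower and 1194 higher in F4 fertile than in P0 gonads, 7.42% and 13.7% of those tested. The lower genes moved little and the higher genes moved far. The median log2 fold change of the lower genes was -0.45 (quartiles -0.67 and -0.36), against 1.29 for the higher genes (quartiles 0.92 and 1.68) and 0.04 for all genes. Only 96 lower genes had a log2 fold change of -1 or less, 1.10% of the genes tested, whereas 832 higher genes reached 1 or more, 9.51% of them. All 3 F4 fertile values lay below all 3 P0 values in 645 of the 649 lower genes, and above them in 1178 of the 1194 higher genes, while over all genes tested 19.1% showed the first order and 25.4% the second. The number of lower genes depended on single libraries: without F4 fertile replicate 1 it was 259, and without F4 fertile replicate 2 it was 280. Of the 649 lower genes, 649 in the first of these fits and all 647 still tested in the second had a fold change below 0. They had been chosen as lower in the same libraries, so this direction was largely set beforehand. Leaving out F4 fertile replicate 3 gave 785 lower genes. The number of higher genes ranged from 659 (without P0 replicate 2) to 1026, with 732 without F4 fertile replicate 2, 717 without P0 replicate 3 and 796 without F4 fertile replicate 1.

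The falls and the rises lay at different expression levels, taken as the mean CPM over the 12 samples. Genes called lower had a median of 114 CPM, those called higher 16.7 CPM, and all genes 37.7 CPM. Among the 770 genes under a mean of 2 CPM, 2.08% were lower and 9.48% higher. Among the 1191 genes at 200 CPM or more the shares were 18.1% and 4.95%, and the bins between them stood in the same order for the lower genes: 3.03% at 2 to 10 CPM, 5.03% at 10 to 50 CPM and 9.28% at 50 to 200 CPM. The error of the fold change fell along the same scale, from a median SE of 0.50 over all genes under 2 CPM to 0.10 at 200 CPM or more, so a fall of a given size was easier to call in an abundant gene. The size of the called falls went the other way, with a median of -1.56 under 2 CPM, -1.24 at 2 to 10 CPM, -0.76 at 10 to 50 CPM, -0.39 at 50 to 200 CPM and -0.38 above that. In 4 equal groups of genes by CPM per kilobase of coding length, the group with the lowest levels held 33 lower and 392 higher genes and the group with the highest levels 269 lower and 111 higher genes. Single libraries moved the bin counts as they moved the total. Without F4 fertile replicate 1 the lower genes of the 5 bins, from the lowest level to the highest, numbered 4, 29, 46, 109 and 71, and without F4 fertile replicate 2 they numbered 3, 22, 48, 113 and 94, against 16, 60, 105, 252 and 216 in the full set. Under 2 CPM there were 7 when any single P0 replicate was left out, and at 2 to 10 CPM there were 35 to 39. The 73 higher genes under 2 CPM became 23 to 25 without F4 fertile replicate 1 or 2 or P0 replicate 2 or 3, and 5 with the 6 samples only. The 59 higher genes at 200 CPM or more became 21 to 36 when any one library was left out, with 21 without P0 replicate 2.

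**Figure D1:**
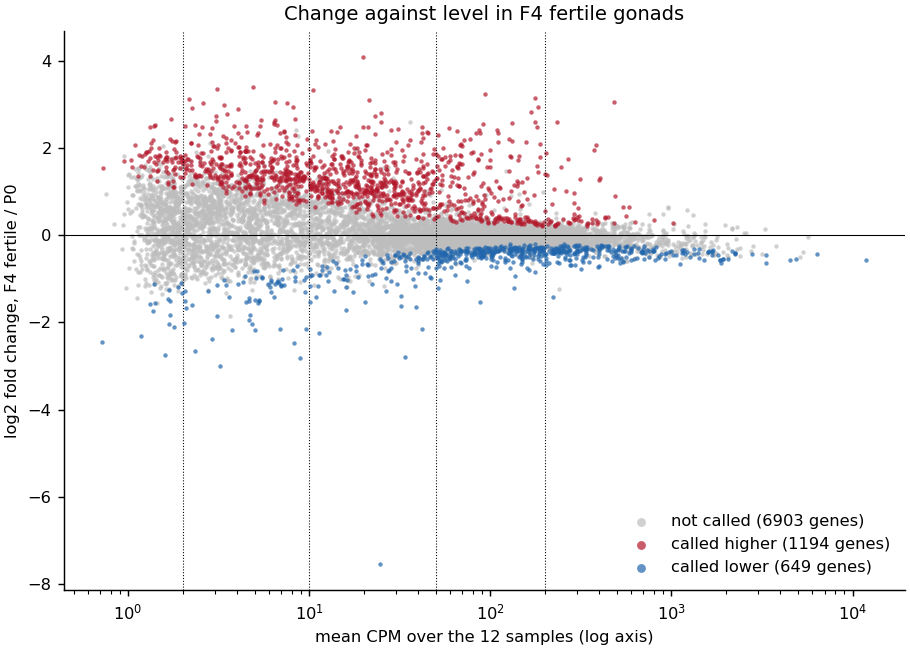
Log2 fold change of F4 fertile over P0 (vertical axis) by mean CPM over the 12 samples (horizontal log axis) for each of the 8746 genes tested, in blue where called lower, red where called higher and grey otherwise, with dotted lines at the edges of the level bins. The 649 lower genes lie mostly at the abundant end close to 0 (median -0.45), and the 1194 higher genes lie at lower levels (median 1.29).

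As a share of all reads on genes, the genes called lower took 22.7, 23.1 and 22.4% in P0 replicates 1, 2 and 3 and 17.2, 17.7 and 18.8% in F4 fertile replicates 1, 2 and 3. The genes called higher took 3.31, 3.11 and 3.32% in P0 and 6.29, 6.42 and 5.69% in F4 fertile samples. These shares describe sets that the test itself chose. Among the F4 fertile libraries replicate 1 was the farthest from P0 in the lower genes and replicate 3 the nearest.

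Genes of protein synthesis, folding and turnover made up 88 of the 649 lower genes. Over 6 lists covering ribosomal proteins, translation factors, aminoacyl-tRNA synthetases, chaperones and the proteasome, 88 of 296 genes were lower (29.7%) and 6 higher, with a median log2 fold change of -0.25 where all genes had 0.04. The share of lower genes was 7.42% over all genes and 18.1% among genes at 200 CPM or more, and no comparison matched for level was made. This count was 31 without F4 fertile replicate 1 and 37 without F4 fertile replicate 2. The most abundant of all lower genes was eef-1A.1 (chromosome III, 6969971-6971948), not in these lists and one of the genes for elongation factor eEF1A, which brings charged tRNA to the ribosome. It was at 16584, 15035 and 15120 CPM in P0 and at 9457, 10593 and 11580 CPM in F4 fertile samples, all of the latter below all of the former (log2 fold change -0.56, SE 0.12, adjusted p = 0.0056). eef-2, which moves the ribosome along the message, went from 8021, 7510 and 7061 CPM to 4872, 5705 and 6270 CPM (-0.42, SE 0.12, adjusted p = 0.028). In both genes replicate 1 was the lowest F4 fertile sample and replicate 3 the highest.

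Aminoacyl-tRNA synthetases, the enzymes that load amino acids onto tRNA, had the largest share of lower genes of any list with more than 20 genes tested: 20 of 35 (57.1%) were lower and none higher, with a median of -0.31. At an unadjusted p under 0.05 the count was 25 lower and 0 higher, and DESeq2 called 23 lower and 0 higher. The count fell to 11 without F4 fertile replicate 1 and 13 without F4 fertile replicate 2. The cysteinyl-tRNA synthetase cars-1 (chromosome I, 2623103-2628579) changed most among the protein-coding members, from 362, 393 and 342 CPM to 103.5, 121 and 189 CPM (-1.41, SE 0.23, adjusted p = 0.0012). It overlaps another annotated gene, and a neighbouring copy annotated as a pseudogene, cars-2, had -1.52 (SE 0.36), so reads may be divided between them. The other synthetases named by the smallest adjusted p fell by less. The tyrosyl-tRNA synthetase yars-1 fell by 0.56 (SE 0.09), the phenylalanyl-tRNA synthetase subunit fars-3 by 0.64 (SE 0.11) and the mitochondrial isoleucyl-tRNA synthetase iars-2 by 0.50 (SE 0.10) on the log2 scale. aars-2, the alanyl-tRNA synthetase and the most abundant member not called, was at 699 to 775 CPM in P0 and 564 to 667 CPM in F4 fertile samples (adjusted p = 0.057).

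Translation initiation and elongation factors had 12 of 27 genes lower (44.4%, against 7.42% of all genes) and 1 higher (3.70%, against 13.7%). Their median was -0.31, and 4 were lower without F4 fertile replicate 1 and 6 without F4 fertile replicate 2. Subunits of eIF3, the scaffold of the initiation complex, led this list. eif-3.C went from 782, 836 and 760 CPM to 499, 523 and 600 CPM (-0.55, SE 0.10, adjusted p = 0.0020), and eif-3.F from 206, 222 and 206 CPM to 148, 156 and 155 CPM (-0.46, SE 0.07, adjusted p = 0.00084). ife-3, which encodes a cap-binding protein of the eIF4E family, fell by 0.50 (SE 0.10). The single higher member was another eIF4E gene, ife-2, described with its relatives below.

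Most cytosolic ribosomal protein genes had a fold change below 0, but few of them passed the test in every fit. The median of 78 genes was -0.39, and 72 of them had a fold change below 0. In 48 all F4 fertile values lay below all P0 values, an order that 19.1% of all genes tested showed. The test called 22 lower (28.2%, against 7.42% of all genes) and 1 higher, while 46 had an unadjusted p under 0.05 with a lower value. Single libraries decided this count: it was 2 without F4 fertile replicate 1, 4 without F4 fertile replicate 2, 6 without P0 replicate 1 and 14 without P0 replicate 3, but 37 without F4 fertile replicate 3. rpl-3 (chromosome III, 3867833-3869527), a protein of the large subunit, went from 4662, 4118 and 4074 CPM to 2386, 2705 and 3223 CPM (-0.63, SE 0.14, adjusted p = 0.0065). rpl-15 fell by 0.57 (SE 0.14), rps-3 by 0.39 (SE 0.10) and rpl-4 by 0.45 (SE 0.15), and in each of them F4 fertile replicate 3 stood nearest to P0. The stalk protein gene rla-0, the most abundant not called, was at 3437 to 3961 CPM in P0 and 2273 to 3095 CPM in F4 fertile samples (adjusted p = 0.051). Mitochondrial ribosomal proteins, much less abundant, had 11 of 63 genes lower (17.5%, against 7.42% of all genes) and a median of -0.20. None was higher (0 at an unadjusted p under 0.05 and 0 by DESeq2). Their count was 3 without F4 fertile replicate 1, 5 without F4 fertile replicate 2, 7 without P0 replicate 2 and 6 without P0 replicate 3. mrps-22 went from 119.4, 126 and 111.8 CPM to 88.7, 81.9 and 87.2 CPM, mrpl-37 fell by 0.55 (SE 0.12) and mrps-27 by 0.37 (SE 0.10).

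Library names fall into 3 prefixes, of which 2 hold both groups: P0 replicate 1 with F4 fertile replicate 2, and P0 replicates 2 and 3 with F4 fertile replicate 3. The remaining prefix holds F4 fertile replicate 1 and no P0 library, so for that replicate the group and the prefix cannot be told apart. What the prefix stands for is not given in the sources used here. The common dispersion, edgeR's estimate of spread shared by all genes, was 0.0314 in the main fit and 0.0116 with prefix as a factor. Within the first prefix the median log2 ratio of the cytosolic ribosomal genes was -0.62, within the second -0.12. The synthetases had -0.30 and -0.24, the translation factors -0.30 and -0.16, and the mitochondrial ribosomal genes -0.24 and -0.20. All genes had medians of 0.02 and 0.04.

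Chaperones, which fold new proteins, had 16 of 60 genes lower (26.7%, against 7.42% of all genes) and 4 higher (6.67%, against 13.7%). Their median was -0.06. Lower were 9 without F4 fertile replicate 2 and 10 without P0 replicate 3. Higher were 2 without F4 fertile replicate 1, P0 replicate 1 or P0 replicate 3. The lower members included 8 subunits of the chaperonin CCT, which folds actin and tubulin. cct-4 went from 535, 549 and 540 CPM to 355, 369 and 392 CPM (-0.54, SE 0.08, adjusted p = 0.00055). hsp-1, the constitutive HSP70, was at 6440, 5845 and 6224 CPM in P0 and 4080, 3806 and 4870 CPM in F4 fertile samples. hsp-90 fell by 0.56 (SE 0.12) and hsp-110, a nucleotide exchange factor of HSP70, by 0.50 (SE 0.10). The higher members named by the rule, hsp-3 and dnj-7, both lie on the X chromosome and rose by 1.27 (SE 0.19 and 0.24). sip-1, an embryonic small heat shock protein and the most abundant gene not called, was at 895 to 1469 CPM in P0 and 1448 to 2113 CPM in F4 fertile samples. The proteasome had 7 of 33 genes lower (21.2%, against 7.42% of all genes), none higher (0 at an unadjusted p under 0.05 and 0 by DESeq2) and a median of -0.18. It had 0 lower genes without F4 fertile replicate 1 or without F4 fertile replicate 2, 3 without P0 replicate 1 and 12 without F4 fertile replicate 3. Its largest change among the 4 named genes was in pas-2, a subunit of the core, from 281, 269 and 263 CPM to 181, 194 and 239 CPM.

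**Figure D2:**
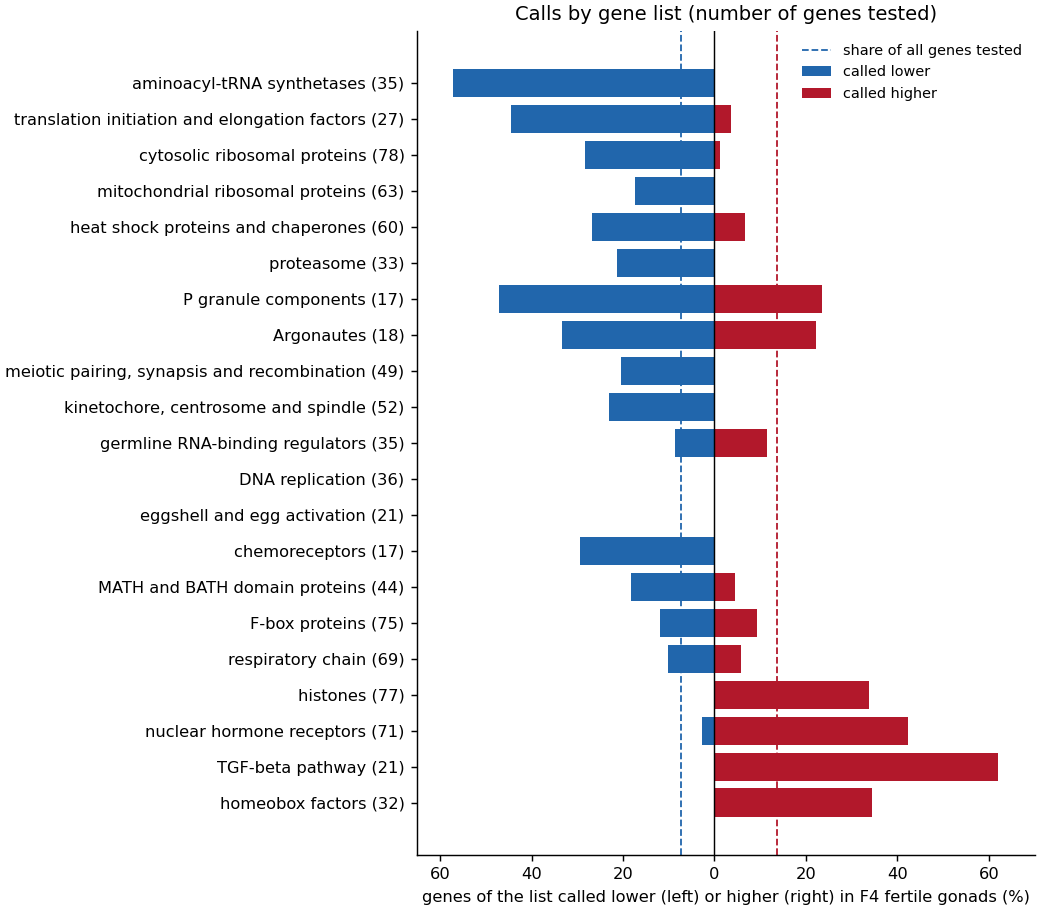
Percentage of the tested genes of each list (number tested in parentheses) that were called lower (blue, to the left) and higher (red, to the right) in F4 fertile against P0, with dashed lines at the percentages over all genes, 7.42 and 13.7. The aminoacyl-tRNA synthetases reach 57.1% lower, and the TGF-beta pathway reaches 61.9% higher with none lower.

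Some lists of genes that act in germ cells also showed small falls. Over 7 such lists, 45 of 189 genes were lower (23.8%, against 7.42% of all genes) and 13 higher, with a median of -0.10. The 7 lists leave out DNA replication (0 of 36 lower), eggshell (0 of 21) and RNA-dependent RNA polymerase and mutator genes (1 of 21), described below. They include spindle and anaphase-promoting complex genes. Among all genes at 200 CPM or more 18.1% were lower with a median of -0.10, and no comparison matched for level was made. The lower count of 45 became 20 without F4 fertile replicate 1 and 22 without F4 fertile replicate 2. P granules are the RNA and protein condensates that mark worm germ cells, and 8 of 17 tested components were lower (3 without F4 fertile replicate 1 or 2, 4 without P0 replicate 1, 5 without P0 replicate 2 or 3). pgl-3, a scaffold protein of the granule, went from 482, 497 and 472 CPM to 325, 330 and 363 CPM (-0.51, SE 0.08, adjusted p = 0.00096). The RNA helicase gene cgh-1, expressed at 3483, 3519 and 3363 CPM in P0, was at 2571, 2467 and 2658 CPM in F4 fertile samples (-0.43, SE 0.13, adjusted p = 0.036). The helicase gene glh-1, not called, was at 401 to 444 CPM in P0 and 311 to 374 CPM in F4 fertile samples (adjusted p = 0.056). The 4 higher members were meg-1, meg-2, meg-3 and meg-4, which encode disordered proteins that act on embryonic P granules. meg-1 went from 165, 137 and 151 CPM to 319, 317 and 282 CPM (1.02, SE 0.09, adjusted p = 1.4e-05), and meg-2 rose by 1.53 (SE 0.18) and meg-3 by 1.11 (SE 0.16), and all of these lie on the X chromosome.

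Small RNA genes moved in both directions. Of 18 Argonautes, the proteins that carry small RNAs to their targets, 6 were lower (33.3%, against 7.42% of all genes). Higher were 4 (22.2%, against 13.7%), and without F4 fertile replicate 1 only 2 were lower. wago-4, a cytoplasmic Argonaute of RNAi inheritance, went from 632, 656 and 614 CPM to 430, 496 and 437 CPM (-0.48, SE 0.09, adjusted p = 0.0037). Chosen after their values were seen, csr-1, hrde-1 and prg-1 had log2 fold changes of -0.42 (SE 0.10), -0.36 (SE 0.10) and -0.38 (SE 0.10); they encode the Argonaute of expressed germline genes, the nuclear Argonaute of inherited silencing and the Piwi protein. wago-1, the most abundant member and not called, was at 1468 to 1567 CPM in P0 and 1337 to 1457 CPM in F4 fertile samples. The rising Argonautes were vsra-1, from 37.4, 32.8 and 32.1 CPM to 138.5, 181 and 145 CPM (2.17, SE 0.18, adjusted p = 8.5e-06), nrde-3, the nuclear Argonaute of somatic cells (1.39, SE 0.19), and the microRNA Argonautes alg-1 (0.99, SE 0.20) and alg-2. Of 21 RNA-dependent RNA polymerases and mutator proteins, 1 was called lower (4.76%). It was the helicase gene mut-14, which went from 94.2, 98.4 and 91.1 CPM to 66.3, 66.7 and 58.7 CPM. DESeq2 called 3 of these 21 lower, and edgeR called 6 with the 6 samples only and 2 without F4 fertile replicate 3. Both called Y-box genes, which encode abundant RNA-binding proteins of the oocyte, fell: cey-2 from 2693, 2776 and 2756 CPM to 1570, 1696 and 2332 CPM, and cey-3 from 1174, 1253 and 1204 CPM to 727, 771 and 977 CPM. Neither was called without F4 fertile replicate 1 or without F4 fertile replicate 2, and cey-2 was not called without any single P0 replicate either.

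Among 35 RNA-binding regulators of germ cell fate, 3 were lower (8.57%, against 7.42% of all genes) and 4 higher (11.4%, against 13.7%). Both shares were near those over all genes. gld-1, a translational repressor of meiotic entry and oogenesis, went from 1570, 1488 and 1412 CPM to 1059, 1147 and 1197 CPM (-0.39, SE 0.09, adjusted p = 0.0080). fbf-2, a regulator of stem cell maintenance, fell by 0.42 (SE 0.10). nos-2, which acts in primordial germ cells, rose from 93.3, 67.7 and 99.8 CPM to 161, 167 and 142.1 CPM, and mog-1, a splicing helicase of the sperm to oocyte switch, rose by 0.31 (SE 0.07). The count of higher members was 1 to 3 when a library was left out, and 1 without F4 fertile replicate 3 or without any of the P0 replicates.

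Meiosis genes had only falls among their calls: 10 of 49 genes of pairing, synapsis and recombination were lower (20.4%, against 7.42% of all genes). None was higher (2 at an unadjusted p under 0.05, 0 by DESeq2 and 1 with the 6 samples only). The median was -0.11, and 5 were lower without F4 fertile replicate 2. htp-3, an axis protein of meiotic chromosomes, went from 217, 217 and 209 CPM to 156, 164 and 153 CPM (-0.44, SE 0.08, adjusted p = 0.0030). dsb-1, required for meiotic double-strand breaks, fell by 0.63 (SE 0.13), the meiotic checkpoint kinase gene chk-2 by 0.57 (SE 0.12) and xnd-1, which places crossovers on the X, by 0.42 (SE 0.10). rad-50, the most abundant of these not called, was at 281 to 286 CPM in P0 and 261 to 308 CPM in F4 fertile samples. Kinetochore, centrosome and spindle genes had 12 of 52 lower (23.1%) and none higher (0 at an unadjusted p under 0.05 and 0 by DESeq2). Their lower count was 6 without F4 fertile replicate 1 and 5 without F4 fertile replicate 2. zyg-9, a microtubule polymerase of the spindle, went from 816, 812 and 762 CPM to 471, 541 and 657 CPM. cls-2, a microtubule rescue factor, fell by 0.56 (SE 0.10), the spindle kinesin gene bmk-1 by 0.40 (SE 0.07) and spd-1, which bundles midzone microtubules, by 0.48 (SE 0.10). The anaphase-promoting complex had 4 of 14 lower (28.6%), among them such-1, apc-2 and mat-3 at -0.31, -0.39 and -0.31. The list had 0 lower genes without F4 fertile replicate 1, F4 fertile replicate 2 or P0 replicate 2. It had 2 without P0 replicate 1 and 1 without P0 replicate 3. Its 1 higher member was gfi-3 on the X chromosome (1.42, SE 0.19).

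DNA replication, eggshell and splicing genes had no or almost no call in the full set. None of 36 DNA replication genes was called by edgeR in the full set, with 3 lower and 2 higher at an unadjusted p under 0.05 and 1 lower and 0 higher by DESeq2, while 2 were lower without F4 fertile replicate 3 and 2 with the 6 samples only. mcm-7, a helicase subunit, stood at 766 to 803 CPM in P0 and 710 to 812 CPM in F4 fertile samples. None of 21 eggshell and egg activation genes was called, with 0 lower and 1 higher at an unadjusted p under 0.05 and 0 by DESeq2, but 1 was lower with prefix as a factor. cbd-1, an eggshell protein and one of the most abundant transcripts of the oocyte, was at 6304, 5870 and 5980 CPM in P0 and 5803, 5989 and 5866 CPM in F4 fertile samples, a difference of -0.04 (SE 0.11). Of 61 splicing factors, uaf-1 was lower and hrpa-2 higher, with 7 lower and 7 higher at an unadjusted p under 0.05, and the number lower was 7 without F4 fertile replicate 3 and 0 without F4 fertile replicate 1, F4 fertile replicate 2, P0 replicate 1 or P0 replicate 2. Nuclear pore and transport genes had 6 of 44 lower (13.6%, against 7.42% of all genes) and 2 higher (4.55%, against 13.7%). Their lower count was 2 without F4 fertile replicate 1 or 2 and 3 without P0 replicate 2. At most 1 was higher when any one library was left out. The importin gene imb-3 went from 1864, 1896 and 1779 CPM to 1227, 1426 and 1611 CPM and imb-2 fell by 0.51 (SE 0.10).

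**Figure D3:**
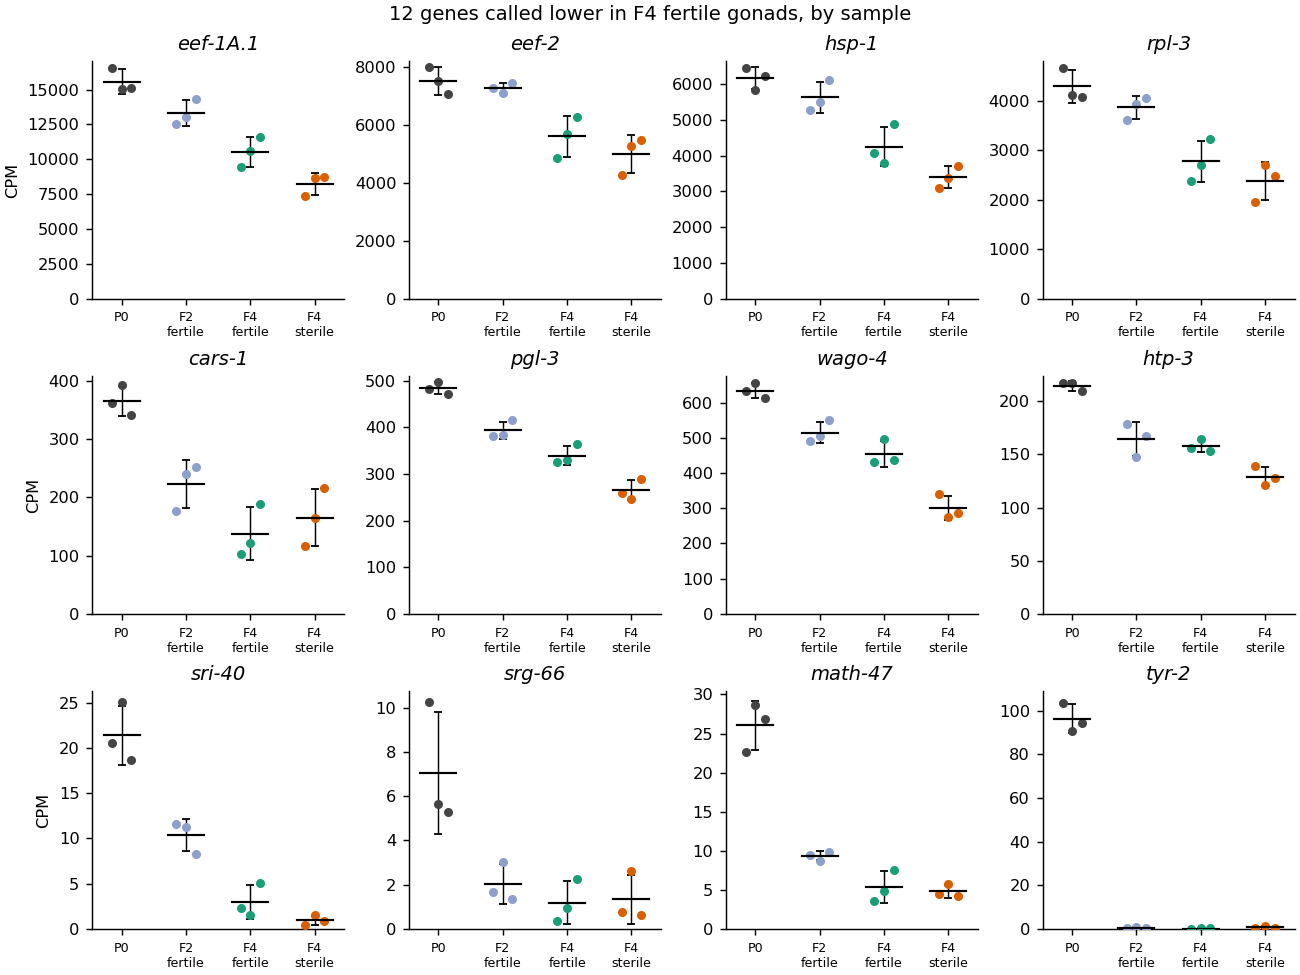
CPM of 12 lower genes in each of the 12 samples by group, on linear axes from 0, where points are samples, long bars are group means and whiskers are the SD (n = 3). The F4 fertile points lie below the P0 points in each gene, by a small step in abundant genes such as eef-1A.1 and from at least 90.95 CPM to at most 0.28 CPM in tyr-2.

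The 96 deepest falls lay mostly at low levels. Their median level was 6.15 CPM, 90 of them lay under 50 CPM, and 23 were pseudogenes and 62 protein-coding. The remaining 553 lower genes had a median level of 149 CPM and a median log2 fold change of -0.42. The median SE was 0.50 under 2 CPM and 0.39 at 2 to 10 CPM, so only large falls could be called there. All 16 lower genes under 2 CPM and 49 of the 60 at 2 to 10 CPM had -1 or less. This difference in level was therefore partly set by the test. The count of 96 was 49 without F4 fertile replicate 2 and 132 without F4 fertile replicate 3. Most of the genes behind them were thus measured in few reads, and tyr-2, clp-7 and Y49E10.4 were the members with both a log2 fold change below -2 and a mean above 50 CPM in P0.

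tyr-2 (chromosome III, 13744121-13747186) encodes a tyrosinase-like protein and had by far the largest fall. It was at 103.8, 90.95 and 94.5 CPM in P0 and at 0, 0.28 and 0.25 CPM in F4 fertile samples, which are 739, 305 and 394 reads against 0, 3 and 1 reads. The fold from the summed reads, adjusted for library sizes, was 494.5 with a 95% counting interval of 193 to 1818, and the fitted log2 fold change of -7.55 (SE 0.43, adjusted p = 3.0e-07) depends on the prior count. tyr-2 was at 0.22 to 1.01 CPM in F2 fertile and 0.31 to 1.41 CPM in F4 sterile samples, so all 9 homozygous samples lay below all 3 heterozygous ones. The gene lies on the chromosome that qC1 balances, and presence of the balancer and loss of set-2 cannot be told apart for it. Y49E10.4 (chromosome III, 12378888-12380511), on the same arm, went from 79.6, 99.3 and 91.6 CPM to 10.01, 11.7 and 16.7 CPM (-2.81, SE 0.24, adjusted p = 1.5e-05).

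clp-7, which encodes a protein of the calpain protease family, lies on chromosome IV (1435466-1446026). It went from 111, 95.4 and 86.1 CPM in P0 to 24.5, 20.9 and 20.0 CPM in F4 fertile samples (-2.15, SE 0.13, adjusted p = 5.8e-07), with log2 ratios of -2.38 and -2.16 within the 2 prefixes. The F4 fertile replicates were close together, and its fold change against P0 was -1.88 (SE 0.13) in F2 fertile and -2.13 in F4 sterile samples. cept-2, a gene of the choline and ethanolamine phosphotransferase family on chromosome V, and ucr-2.3, a subunit of respiratory complex III on chromosome III, stood in the same manner. cept-2 went from 84.8, 97.5 and 88.0 CPM to 37.2, 43.2 and 34.1 CPM (-1.22, SE 0.12, adjusted p = 4.0e-05) with -1.02 in F2 fertile and -1.39 in F4 sterile samples. ucr-2.3 went from 239, 249 and 217 CPM to 90.8, 114 and 99.6 CPM (-1.21, SE 0.12, adjusted p = 4.0e-05) with -1.03 and -1.39. Other falls were uneven among the F4 fertile replicates. R03D7.2 on chromosome II went from 152, 149 and 146 CPM to 24.7, 47.2 and 84.0 CPM (-1.54, SE 0.35). C53H9.2 on chromosome I, an abundant gene that is not among the 96, went from 436, 486 and 406 CPM to 196, 270 and 306 CPM (-0.78, SE 0.15).

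Chemoreceptor genes, which encode receptors of sensory neurons and were present at low levels in these gonads, had 5 of 17 lower (29.4%, against 7.42% of all genes). None was higher (0 at an unadjusted p under 0.05 and 0 by DESeq2). The median was -0.67, and the within-prefix medians were -0.60 and -0.64. The count was 2 without F4 fertile replicate 1 or 2 and 3 without P0 replicate 1 or 2. sri-40 (chromosome II, 3177969-3180471) was the most abundant, with 20.5, 25.0 and 18.7 CPM in P0 and 2.32, 1.51 and 5.06 CPM in F4 fertile samples (-2.82, SE 0.40, adjusted p = 0.00047). srxa-6 and srt-47 fell by 1.51 (SE 0.35) and 1.47 (SE 0.39). The lower members srg-66 and srg-65 are neighbours on chromosome V and part of a run of lower genes described below. F-box genes, whose products pick proteins for ubiquitination, went both ways, with 9 of 75 lower (12%, against 7.42% of all genes) and 7 higher (9.33%, against 13.7%). fbxa-107 (chromosome V) went from 20.5, 17.9 and 15.3 CPM to 1.97, 2.64 and 4.55 CPM, and its neighbour fbxa-210 fell by 0.49 (SE 0.11). fbxb-97 (chromosome II) rose from 6.74, 4.47 and 8.63 CPM to 33.6, 39.4 and 38.9 CPM, and fbxc-50 rose by 0.91 (SE 0.14). The lower F-box count was 5 without F4 fertile replicate 1 or P0 replicate 1 and 4 without F4 fertile replicate 2. The higher count was 4 without F4 fertile replicate 1 and 3 without F4 fertile replicate 2, P0 replicate 2 or P0 replicate 3.

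MATH and BATH genes, a worm-expanded family of substrate adaptors, had 8 of 44 lower (18.2%, against 7.42% of all genes) and 2 higher (4.55%, against 13.7%). Most of the lower members were neighbours on chromosome II. The lower count was 5 without F4 fertile replicate 1, P0 replicate 1 or P0 replicate 2 and 4 without F4 fertile replicate 2. The neighbourhoods that follow were picked after their values were seen and are described without a test. Between 1930996 and 2008255 on chromosome II, 11 tested genes in a row were called lower, the longest such run in the genome. They were F52C6.14, math-47, math-48, ZK250.2, math-49, math-50, ZK250.9, ZK250.10, Y16E11A.2, math-44 and F59H6.5, with log2 fold changes from -2.25 to -1.15 and a median of -1.67, and 3 are annotated as pseudogenes. math-47, one of the annotated pseudogenes, was at 22.6, 28.6 and 26.9 CPM in P0 and 3.58, 4.81 and 7.59 CPM in F4 fertile samples. math-48 was at 10.8, 12.5 and 9.36 CPM in P0 and 3.04, 2.93 and 6.07 CPM in F4 fertile samples. In the 200 kb window that holds most of them (1800001-2000000), 11 of 27 genes were lower and 25 had a fold change below 0, while fbxb-97 near its left edge was higher. The window held 5 lower genes without F4 fertile replicate 2 and 7 without F4 fertile replicate 1 or P0 replicate 2. The annotated gene C46F9.1 (1905434-1998538) overlaps every gene of the run from F52C6.14 to math-44, so reads there may be divided between annotations. Farther to the right, bath-24 fell by 2.18 (SE 0.45) and bath-19 by 1.02 (SE 0.20).

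A second run lay on chromosome V between 5468669 and 5504840, where 8 tested genes in a row were lower: ZC317.7, ZC317.1, srg-66, srg-65, grl-18, T05C3.6, T05C3.2 and dnj-19, with a median of -1.92. grl-18, a gene with a ground-like domain of the hedgehog-related family, was at 7.58, 5.96 and 4.08 CPM in P0 and 0.89, 0.47 and 0.76 CPM in F4 fertile samples (-2.65, SE 0.46). T05C3.6 was at 12.1, 6.56 and 5.04 CPM in P0 and 0.54, 1.13 and 0.25 CPM in F4 fertile samples (-3.0, SE 0.55). srg-66, a chemoreceptor gene, was at 10.3, 5.67 and 5.28 CPM and 0.36, 0.94 and 2.28 CPM. ZC317.7 at the left end was better measured, at 65.6, 59.0 and 51.3 CPM against 22.7, 18.5 and 25.8 CPM (-1.40, SE 0.16, adjusted p = 0.00013). Just past the right end, nhr-47 rose from 3.93, 3.58 and 5.76 CPM to 15.9, 15.6 and 8.09 CPM. In the 200 kb around it (5400001-5600000), 11 of 27 genes were lower and 5 higher, and 7 were lower without F4 fertile replicate 2. F2 fertile samples had a median of -1.43 over the 8 genes of the run and of -0.80 over the 11 of chromosome II, and F4 sterile samples -1.82 and -1.18, against the same P0 samples.

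Over the genome, 504 windows of 200 kb held tested genes, their median number of lower genes was 1, and 206 windows had none. Runs of 4 or more lower neighbours occurred 5 times. A shorter run of 4 on chromosome III (6553507-6589345) contained the pseudogene F27B3.7, which went from 8.01, 8.05 and 8.88 CPM to 1.07, 2.08 and 1.52 CPM (-2.17, SE 0.32). Y57G11C.8 on chromosome IV, which overlaps other annotated features, went from 16.4, 16.7 and 16.8 CPM to 4.11, 3.30 and 3.03 CPM. Pseudogenes as a class had 48 of 293 lower (16.4%) and 5 higher, with a median of -0.27, against 7.15% of the 8167 protein-coding genes. Without F4 fertile replicate 2 the pseudogene count was 20, without F4 fertile replicate 1 it was 21 and without P0 replicate 3 it was 30. The 5 higher pseudogenes became 3 without F4 fertile replicate 1, 2 when any other single library was left out and 9 with the 6 samples only. Reads of a pseudogene may come from a related gene, so each of these values is uncertain.

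**Figure D4:**
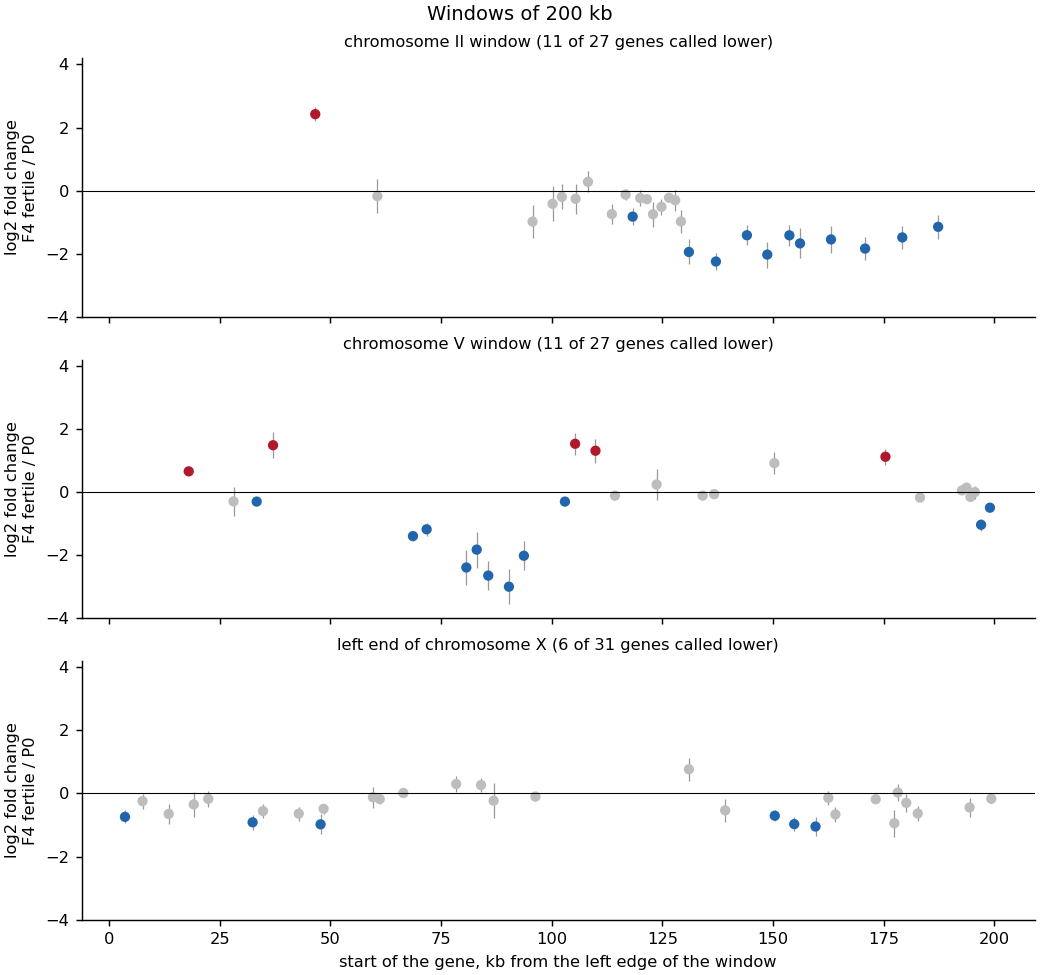
Log2 fold change of F4 fertile over P0 (points, with SE as lines) for each tested gene by the distance of its start from the left edge, in kb, of 3 windows of 200 kb, in blue where called lower and red where called higher. On chromosome II 11 of 27 genes are called lower, on chromosome V 11 of 27 and at the left end of X 6 of 31.

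The X chromosome took almost no part in the falls. Of its 971 tested genes 9 were lower (0.927%) and 419 higher (43.2%), and the median of the chromosome was 0.86. The number of lower X genes was 1 without F4 fertile replicate 1, 2 without F4 fertile replicate 2, 5 without P0 replicate 2, 4 without P0 replicate 1 or 3 and 17 without F4 fertile replicate 3. The number of higher X genes was 278 without P0 replicate 2. On the autosomes the numbers of lower genes were 131 on chromosome I, 136 on II, 115 on III, 135 on IV and 123 on V. The count on chromosome III was 42 without F4 fertile replicate 1, 49 without F4 fertile replicate 2 and 183 with the 6 samples only. Of the 9 lower X genes, 6 lay in the first 200 kb of the left end, where 26 of 31 tested genes had a fold change below 0 and the median was -0.35. Of these 6, 4 are annotated as pseudogenes. Y73B3A.10, for example, was at 30.6, 25.0 and 24.9 CPM in P0 and 10.9, 14.7 and 15.2 CPM in F4 fertile samples (-0.97, SE 0.22, adjusted p = 0.0073). In that window 1 gene was called without F4 fertile replicate 1, 2 without F4 fertile replicate 2, 3 without P0 replicate 3 and 10 without F4 fertile replicate 3. Of the 9, C39D10.7 alone was above 50 CPM, and it fell from 495, 339 and 393 CPM to 243, 303 and 251 CPM (-0.62, SE 0.20, adjusted p = 0.042).

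Some proteins are encoded by an autosomal and an X-linked gene, and in several of them an autosomal member was called lower and an X-linked member higher. The cases were picked after their values were seen. For eEF1A, the X-linked copy eef-1A.2 (7823601-7825718) rose from 61.1, 54.6 and 51.8 CPM to 337, 545 and 517 CPM (3.05, SE 0.31, adjusted p = 4.9e-05) while eef-1A.1 fell. Per kilobase of coding length the mean level of eef-1A.1 went from 11216 to 7591 CPM and that of eef-1A.2 from 40.2 to 336 CPM, so the autosomal copy remained the major one. For ribosomal protein L11, the autosomal rpl-11.1 went from 2630, 2212 and 2168 CPM to 1386, 1572 and 1793 CPM (-0.56, SE 0.13). The X-linked rpl-11.2 went from 23.3, 7.16 and 13.2 CPM to 19.1, 204 and 142.4 CPM (2.95, SE 0.93, adjusted p = 0.039), where F4 fertile replicate 1 stayed within the P0 range and the call was lost when F4 fertile replicate 2, F4 fertile replicate 3 or any one P0 replicate was left out.

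The respiratory chain held more such cases. Of its 69 tested genes 7 were lower (10.1%, against 7.42% of all genes) and 4 higher (5.80%, against 13.7%), and the 4 higher were all on the X chromosome. The X-linked ucr-2.2 rose from 6.18, 3.58 and 6.72 CPM to 35.2, 30.3 and 30.1 CPM (2.44, SE 0.23, adjusted p = 2.7e-05) and ucr-2.1 rose by 1.51 (SE 0.49), against the fall of the autosomal ucr-2.3. Per kilobase, ucr-2.3 went from 184 to 79.1 CPM and ucr-2.2 from 4.34 to 25.2 CPM. For the flavoprotein of succinate dehydrogenase, sdha-2 on chromosome I went from 332, 313 and 303 CPM to 239, 240 and 274 CPM, and sdha-1 on the X from 24.2, 15.8 and 22.1 CPM to 69.0, 70.1 and 74.4 CPM. For the 49 kDa subunit of complex I, nduf-2.2 on chromosome III fell by 0.38 (SE 0.09) and gas-1 on the X rose by 2.35 (SE 0.38). For the b subunit of ATP synthase, asb-1 on chromosome III fell by 0.28 (SE 0.08), while asb-2 on the X was at 15.6 to 21.2 CPM in P0 and 13.6 to 33.2 CPM in F4 fertile samples (0.36, SE 0.56, adjusted p = 0.69). The lower respiratory count was 2 without F4 fertile replicate 1 or 2, 4 without P0 replicate 1 and 13 without F4 fertile replicate 3.

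The eIF4E family and the endoplasmic reticulum chaperone BiP gave further cases. ife-1 and ife-3 on autosomes fell by 0.39 (SE 0.12) and 0.50 (SE 0.10), and the X-linked ife-2 rose from 9.55, 6.26 and 6.48 CPM to 25.6, 23.4 and 27.1 CPM (1.69, SE 0.28, adjusted p = 0.0013). Neither of the other two members was called: ife-4 on the X had 1.03 (SE 0.43) and ife-5 on chromosome II had -0.79 (SE 0.40). hsp-4 on chromosome II went from 641, 605 and 619 CPM to 441, 444 and 485 CPM (-0.45, SE 0.10), and hsp-3 on the X from a mean of 157.3 ± 34.8 CPM to 381.5 ± 22.7 CPM (SD, n = 3 each). A count of gene families by a shared name before a point found 72 with at least 2 members tested. Of these, 3 held both a lower and a higher gene: rpl-11, snpc-1 and ucr-2. The eef-1A genes, given above, also went both ways but were not among the families that this count listed.

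**Figure D5:**
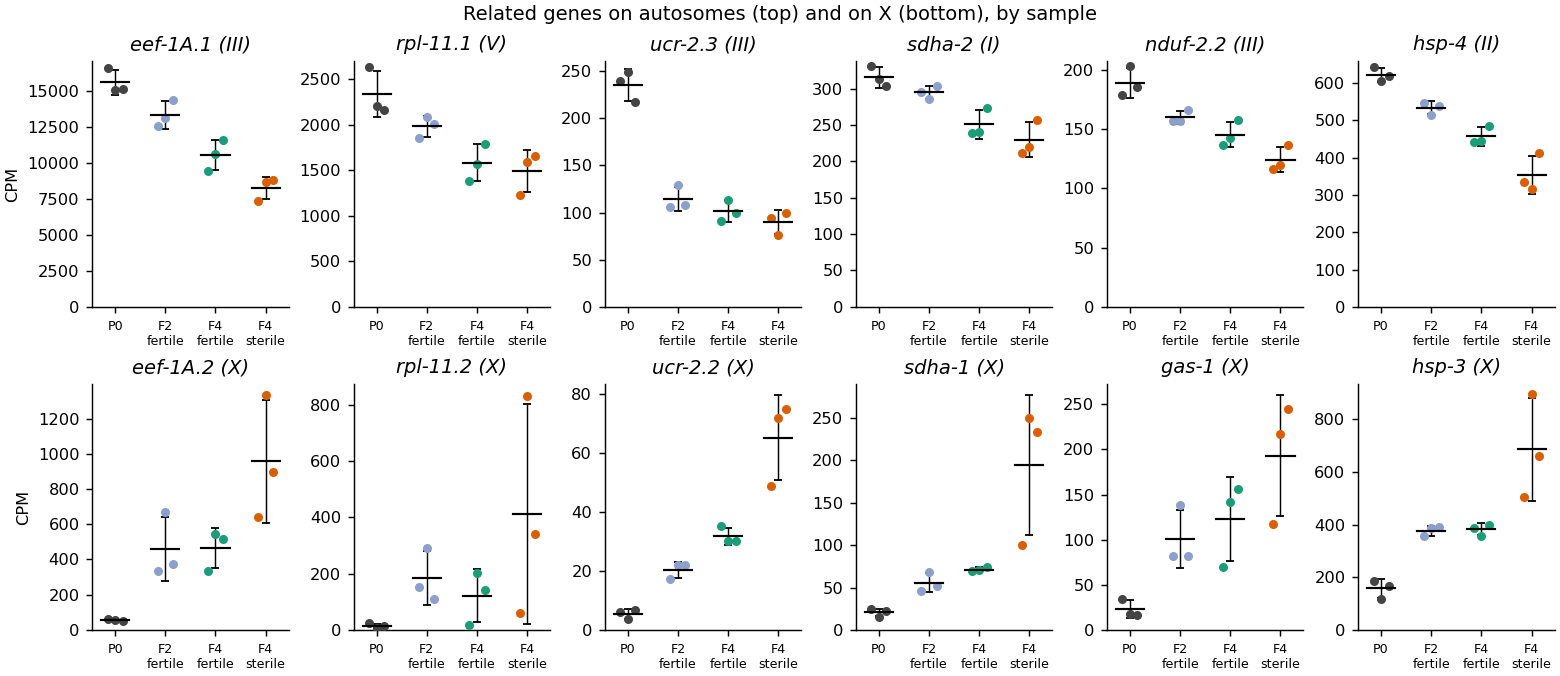
CPM of 6 autosomal genes (top) and of X-linked genes for the same protein (bottom) in each of the 12 samples by group, on linear axes from 0, where points are samples, long bars are group means and whiskers are the SD (n = 3). In F4 fertile samples the autosomal gene lies below P0 and the X-linked gene above it, except in rpl-11.2, where F4 fertile replicate 1 at 19.1 CPM lies within the P0 range.

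The rises are given more briefly. The 10 largest among genes with at least 5 CPM in F4 fertile samples included 4 on the X chromosome, eef-1A.2, the RNA-binding puf-9, K09F5.6 and the calcium uniporter regulator emre-1. puf-9 rose from 33.01, 16.4 and 16.3 CPM to 194, 239 and 182 CPM (3.15, SE 0.45). On autosomes, R03H10.6 rose from 1.12, 1.49 and 0.24 CPM to 7.15, 41.4 and 13.9 CPM and T05G5.1 from 3.93, 2.38 and 3.36 CPM to 45.2, 28.03 and 19.7 CPM. Y45F3A.4 and the cuticlin-like cutl-23 were at most 0.72 CPM in P0 and at least 3.79 CPM in F4 fertile samples. Of 77 histone genes 26 were higher (33.8%, against 13.7% of all genes) and none lower (1 lower at an unadjusted p under 0.05, 0 by DESeq2). Without F4 fertile replicate 2, 15 were higher, and without P0 replicate 2, 17. With the replicate number as a block 2 were lower, and with library prefix as a factor 43 were higher. his-32, his-2, his-4 and his-6 went from between 7.46 and 38.9 CPM to between 57.4 and 239 CPM, but near-identical copies share sequence, so each value is uncertain. The most abundant histone gene not called, his-48, was at 2413 to 2883 CPM in P0 and 2501 to 2919 CPM in F4 fertile samples.

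Nuclear hormone receptors, a family of transcription factors, had 30 of 71 higher (42.3%, against 13.7% of all genes) and 2 lower (0 without F4 fertile replicate 1 or 2, 1 when any single P0 replicate was left out), with a median of 1.02 (13 higher without P0 replicate 2, 14 without F4 fertile replicate 2, 15 without P0 replicate 1, 17 without P0 replicate 3). nhr-46 rose by 1.23 (SE 0.17), nhr-71 by 1.22 (SE 0.20) and nhr-48 by 1.38 (SE 0.25). nhr-57 had 0 reads in all P0 libraries and 1.79, 2.17 and 3.03 CPM in F4 fertile samples, at least 10.9-fold higher than the 3 reads over the P0 group taken as its floor. The TGF-beta pathway had 13 of 21 higher (61.9%) and none lower (1 at an unadjusted p under 0.05, 0 by DESeq2) with 8 higher without P0 replicate 2. The receptor gene daf-1 rose from 18.5, 13.7 and 16.8 CPM to 44.2, 50.03 and 41.5 CPM (1.44, SE 0.16, adjusted p = 8.5e-05), the receptor gene daf-4 by 0.95 (SE 0.17), the SMAD gene sma-4 by 2.64 (SE 0.42) and obr-3 by 1.39 (SE 0.22). This list was chosen with the study's own account of the pathway in these samples known, so its direction is not independent evidence. Homeobox genes had 11 of 32 higher (34.4%) and none lower (1 at an unadjusted p under 0.05, 0 by DESeq2), 7 without F4 fertile replicate 2 or P0 replicate 2. The ONECUT genes ceh-39 and ceh-21, neighbours on the X, rose by 1.59 (SE 0.20) and 1.80 (SE 0.30), ceh-93 by 1.37 (SE 0.21) and ceh-43 on chromosome III from at most 1.49 CPM to at least 5.18 CPM.

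The same lists in the other generations place these values, although every contrast uses the same 3 P0 samples. Each list's median relative to P0 is given in the order F2 fertile, F4 fertile, F4 sterile. The aminoacyl-tRNA synthetases had -0.10, -0.31 and -0.38. For the cytosolic ribosomal proteins it was -0.09, -0.39 and -0.50, for the translation factors -0.09, -0.31 and -0.38, and for P granule components -0.10, -0.27 and -0.30. Meiotic genes had -0.09, -0.11 and -0.21. Chemoreceptors had -0.07, -0.67 and -0.79, and MATH and BATH genes -0.11, -0.18 and -0.06. The nuclear hormone receptors had 0.84, 1.02 and 1.47. Directly between the fertile generations, edgeR called 0 genes lower in F4 fertile than in F2 fertile samples, with 502 lower at an unadjusted p under 0.05. Between F4 sterile and F4 fertile samples 38 genes were lower (0.434%) and 249 higher (2.85%).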

How the data were processed

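RNA was taken from pooled dissected gonad arms cut at the bend, depleted of ribosomal RNA and sequenced on a HiSeq. The authors aligned reads with TopHat2 to the WS220 transcriptome, kept unique alignments, removed reads on ribosomal RNA and made the deposited count files, whole reads per gene, with HTSeq. Versions and strand use are not given in the sources used here. The deposited series table holds the same counts divided by size factors, a normalized signal used only to match columns and names, and the authors' own comparison columns, which were not used.

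Counts of all 12 samples were fitted in edgeR 4.0.16 (R 4.3.3) by the quasi-likelihood test, with TMM scaling, edgeR's expression filter, a prior count of 2, 1 coefficient per group and no covariate. P-values were Benjamini-Hochberg adjusted over the 8746 genes tested, and SE was derived from the fold change and F. Counting intervals cover counting error only. On simulated counts with 200 of 8746 genes changed in this comparison, the fit called 67.3% of changes by a factor of 2 and 73.1% of changes by a factor of 4, and 4.11% of its calls were false. The simulation held no smaller changes and no differences between library prefixes. Its rates therefore do not describe the 553 of 649 lower genes with a log2 fold change above -1.

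Genes were named by rule: set-2; among non-overlapping calls with a mean of at least 5 CPM, the 12 largest falls, the 8 most abundant lower genes, the 2 largest falls in each of 5 level bins and the 10 largest rises; and up to 4 called genes and the most abundant uncalled gene of each list described. Others are said to be chosen after their values were seen. The comparison and the 57 lists were chosen with earlier results of these data known. Current symbols replace some deposited names, and coordinates are those deposited. Alternatives were DESeq2 1.42.0, RLE factors, no filter, 6 samples only, a replicate block, library prefix as a factor and each library left out. The counts with a fold threshold and with chromosome III left out are subsets of the main calls. Ratios within prefixes used a pseudocount of 0.5 CPM and were chosen after seeing the data. One result that the naming rule selects is not reported here.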

Additional observations from a re-analysis of the deposited data

Results flagged for a closer look

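The same contrast against P0 can be set beside the sterile F4 samples. Of the 118 named genes, 12 differed between F4 sterile and F4 fertile samples in a direct edgeR test, n = 3 in each group, and each is given as the log2 fold change of F4 sterile over F4 fertile samples. Groups of 3 were not tested for single samples far from the rest.

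Among genes lower in F4 fertile than in P0 gonads, pgl-3 was lower again in sterile samples (-0.35, SE 0.08, adjusted p = 0.037). wago-4 was lower by -0.60 (SE 0.09, adjusted p = 0.019) and mrpl-39 by -0.43 (SE 0.10, adjusted p = 0.041).

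Among genes higher in F4 fertile than in P0 gonads, the largest further rise was in sdha-1 (1.45, SE 0.27, adjusted p = 0.023). ife-2 rose by 1.34 (SE 0.25, adjusted p = 0.025), hrpa-2 by 1.34 (SE 0.25, adjusted p = 0.025), ceh-39 by 1.07 (SE 0.19, adjusted p = 0.020) and ucr-2.2 by 1.03 (SE 0.20, adjusted p = 0.025). utx-1 rose by 0.98 (SE 0.25, adjusted p = 0.0498), gfi-3 by 0.86 (SE 0.17, adjusted p = 0.026), hsp-3 by 0.85 (SE 0.18, adjusted p = 0.031) and alg-1 by 0.83 (SE 0.19, adjusted p = 0.035). All 9 of these lie on the X chromosome.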

How the results depend on the processing

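The direction of every lower gene still tested was the same under each alternative fit run, but the number called was not. These genes were chosen as lower in the same samples, and 645 of the 649 showed no overlap between the groups. A kept direction was therefore largely set beforehand. Lower genes numbered 1032 with the 6 samples only, 845 with DESeq2, 792 with RLE factors, 770 with prefix as a factor and 688 with no filter. Of the 649 calls of the main fit, 534 lay outside chromosome III and 96 had an absolute log2 fold change of at least 1. Those 534 and 96 are subsets of the same calls and not new fits. Lower genes at 50 CPM or more numbered 468, and 771 with the 6 samples only. Cytosolic ribosomal proteins, 22 lower, had 48 with the 6 samples only, 40 with DESeq2 and 61 with no filter. The proteasome, 7 lower, had 11 with the 6 samples only and 4 with prefix as a factor, and kinetochore genes, 12 lower, had 19 with the 6 samples only. The cause of these moves was not tested.

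Leaving out 1 library at a time gave 259 to 785 lower and 659 to 1026 higher genes, 180 to 582 lower at 50 CPM or more and 73 to 197 under 50 CPM. The lower counts ranged from 11 to 22 for the synthetases, 4 to 14 for translation factors, 2 to 37 for cytosolic and 3 to 12 for mitochondrial ribosomal proteins, 9 to 16 for chaperones, 0 to 12 for the proteasome, 3 to 9 for P granule components, 2 to 6 for Argonautes, 5 to 12 for meiotic genes, 5 to 11 for kinetochore genes, 4 to 7 for MATH and BATH genes and 2 to 5 for chemoreceptors. Of the 118 named genes, 22 lost their call without F4 fertile replicate 1 and 21 without F4 fertile replicate 2. None reversed, but these genes were also chosen by their values in the same samples.

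Same-numbered P0 and F4 fertile samples had correlations of -0.109, -0.0416 and -0.0842 of their deviations from group means, so the numbers were not taken as pairs. With the number as a replicate block 743 genes were lower and 1229 higher, cytosolic ribosomal proteins had 34 lower and no named gene lost its call.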
